A study of Arabidopsis thaliana with 34 samples.

Results

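The regions described here, selected on their read counts, are stretches of the Arabidopsis thaliana genome where trimethylated histone H3 lysine 27 (H3K27me3) gave more reads in vrn2-5 than in Col-0 seedlings in each of 3 replicate pairs. Each of the 3 deposited tables compares 1 pair of libraries, called pair 1 to pair 3 here. Overlapping regions of the tables were merged on chromosomes 1 to 5, and those present in all 3 tables were kept. In each table the reads of a region were divided by the table's total for each genotype, the log2 of vrn2-5 over Col-0 was taken, and the median over the kept regions was subtracted, which gives the value of a region in that table. A region was included where its value was above 0.1 in all 3 tables. This held for 287 of 3786 kept regions (7.58%), while 464 (12.3%) lay more than 0.1 below the median in all 3 tables. Higher thus means higher relative to the median kept region, and without subtracting the median 87 regions passed. The regions were thus chosen by the H3K27me3 reads of these same libraries, so the excess in vrn2-5 is given below as a description, without a test, and the expression of the genes inside is what was tested.

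Polycomb repressive complex 2 writes H3K27me3, a mark that in plants often covers whole genes and is associated with their silence. VRN2 is a subunit of this complex, known for the lasting repression of the flowering repressor FLC after cold, and the VRN2 protein is a target of the PRT6 branch of the N-degron pathway, which couples protein stability to oxygen and nitric oxide. In seedlings the mark lies on floral organ identity genes, meristem genes and embryo genes that are used in other tissues.

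The mark was profiled in whole seedlings of Col-0, the reference line, and of vrn2-5, a VRN2 mutant, with 3 immunoprecipitations and 3 inputs each. VRN2-YFP was immunoprecipitated 3 times, with 3 inputs, from whole seedlings that carry vrn2-5 together with pVRN2::VRN2-YFP, a fusion of VRN2 to a yellow fluorescent protein under the VRN2 promoter. Messenger RNA was sequenced in whole seedlings of Col-0, vrn2-5, prt6-1 (a PRT6 mutant) and vrn2-5 prt6-1, 3 libraries each, and in whole rosettes of pif4-2 and vrn2-5 pif4-2, 2 libraries each. The groups of the rosette comparison all carry pif4-2, a mutant allele of the growth-promoting factor PIF4, so no rosette library is wild type. Each mutated gene is represented by 1 allele, and the sources used here do not give plant age, light or temperature. The labels do not say whether replicates were separate plantings, so every p-value measures a spread between samples that may be technical.

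The table headers call the compared libraries A and B without naming them. A was read as vrn2-5 and B as Col-0 from the order in which the comparison names the genotypes. Every direction of the mark given here rests on that reading. The tables held 4373729 to 7617004 reads in regions per library, 42.74% to 48.42% of the library sizes recovered from the authors' normalized values. Of 31 known developmental targets of the mark 30 lay in kept regions, against 1 of 9 photosynthesis genes. Seedling mRNA libraries held 1208836 to 27853214 recovered reads, with 6 libraries of at least 9232780 reads spread over the 4 genotypes, and rosette libraries held 15912781 to 26322823. VRN2 itself gave 116.2, 162.9 and 135.1 normalized reads (reads divided by 1 size factor per library) in Col-0, against 50.06, 44.97 and 50.28 with the vrn2-5 allele alone. In rosettes it gave 18.6 and 18.3 CPM (counts scaled to 1000000 per library) in pif4-2, against 6.98 and 5.62 in vrn2-5 pif4-2, so the vrn2-5 libraries went with their label. PRT6 was not lower in the prt6-1 libraries (49.6, 142 and 93.8) than in Col-0 (0, 46.0 and 57.7), and its reads do not check that label. PIF4 reads were present in all rosette libraries (20.5 to 64.4 CPM), both groups carrying the allele. All 9 photosynthesis markers were present in every mRNA library and none of the 11 seed maturation markers was in the seedling table. In whole seedlings and rosettes, fewer cells of a type and less RNA or mark per cell cannot be told apart.

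The excess of the mark was small in most of the 287 regions. The median value was 0.23 in pair 1, 0.16 in pair 2 and 0.15 in pair 3, which are folds of 1.18, 1.12 and 1.11 relative to the median region. The values ran from 0.104 to 1.86 in pair 1, from 0.1004 to 0.824 in pair 2 and from 0.1002 to 0.656 in pair 3. The lowest of a region's 3 values was above 0.2 in 35 regions, above 0.3 in 10 and above 0.5 in 1. Across the 3786 kept regions, the values of different pairs had correlations of 0.562 to 0.588, given as a description, since all regions of a table share the same pair of libraries. Levels, scaled to 1000000 reads in regions per library, were higher in every vrn2-5 library than in every Col-0 library for 11 of the 287 regions, against 18 of all kept regions (0.475%). In the other regions of the set the genotypes overlapped. Each vrn2-5 library exceeded the Col-0 library of its own pair, which the rule fixed in advance. The medians it subtracted were small, at -0.071, -0.062 and -0.036 in pairs 1 to 3.

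**Figure D1:**
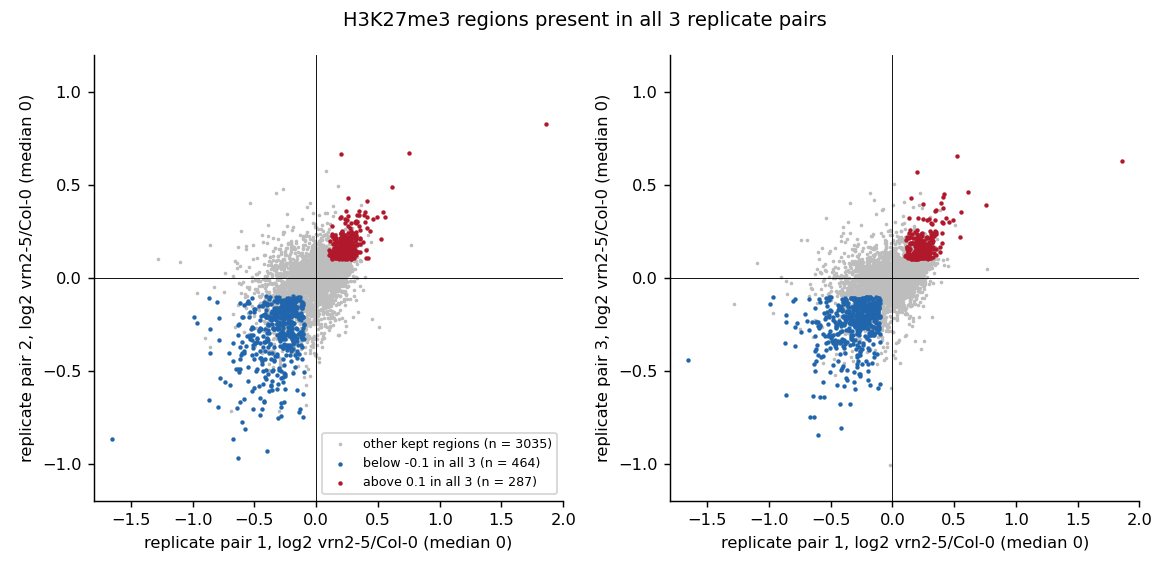
Each point is 1 of 3786 kept H3K27me3 regions, with its value (log2 of vrn2-5 over Col-0, median set to 0) in pair 1 on the x axis and in pair 2 (left) or pair 3 (right) on the y axis. The 287 regions above 0.1 in all 3 tables (red) lie at the upper right edge of 1 continuous cloud, with 1 region far out at 1.86, 0.82 and 0.63.

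The authors' own statistics describe the same reads. In the authors' deposited tables the normalized ratio of A over B was above 1 in all 3 tables for 277 of the 287 regions, with medians of 1.08, 1.07 and 1.06 in pairs 1 to 3. A deposited false discovery rate under 0.05 for A over B was reached by at least 1 row in 203 of the 287 regions in pair 1. The count was 213 in pair 2 and 153 in pair 3. Among all 3786 kept regions, 501 (13.2%), 553 (14.6%) and 269 (7.11%) reached it in pairs 1 to 3. A rate under 0.05 was reached in all 3 tables by 108 of the 287 regions and by 112 of all kept regions (2.96%). These rates come from the reads that chose the regions and were computed within 1 pair of libraries each.

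The threshold cuts through a continuous range. There were 60 regions with a lowest value up to 0.11, and 55 kept regions fell just short with a lowest value from 0.09 to 0.1. Just inside lay chr2:11636800-11643999, which covers the homeobox gene BLH5, with values of 0.16, 0.16 and 0.101. The other 3 nearest inside were chr1:17376800-17395599 at 0.20, 0.13 and 0.1002, chr5:7508800-7512799 at 0.13, 0.1004 and 0.14, and chr1:2351600-2360399 with the transcription factor gene OBP2 at 0.28, 0.1009 and 0.15. Just outside lay chr1:3079800-3085799, upstream of the transcription factor gene MYB61, at 0.19, 0.0999 and 0.12, and chr2:13703000-13716199 with the zinc transporter gene ZIP3 and the beta-amylase gene BAM6, at 0.25, 0.12 and 0.0992. The other 2 nearest outside were chr3:15091000-15101199 at 0.35, 0.14 and 0.0998 and chr5:677600-684599 at 0.24, 0.15 and 0.0993.

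The 287 regions were long and densely marked. Their median length was 7600 bp, with a range of 1400 to 26000 bp, against 5200 bp for all kept regions and 2600 bp for the 464 lower regions, and together they covered 2.54 Mb. The median density was 20.4 normalized reads per kb, averaged over the 6 libraries, against 14.1 for all kept regions and 11.9 for the lower regions. Kept regions were divided into 10 classes of about equal number by density, from 1 (least dense) to 10 (densest). The set took 29.0% of class 10 and 1.32% of class 1, and classes 9 and 10 together held 158 of the 287 regions (55.05%).

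Density also moved with the value in all 3 tables. From class 1 to class 10, the median value went from -0.24 to 0.21 in pair 1, from -0.04 to 0.10 in pair 2 and from -0.03 to 0.08 in pair 3. The median was also subtracted within 10 density classes formed anew in each table, from the reads of its own pair. A region's class there can differ from its class above, which used all 6 libraries. With this choice, made after seeing the data, 185 regions passed and 106 of them were among the 287. By the classes from all 6 libraries, the share that passed was then 6.86% in class 1 and 2.64% in class 10. The part of density in the excess of any one region was not tested, and the values within density classes are given below for the gene groups.

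**Figure D2:**
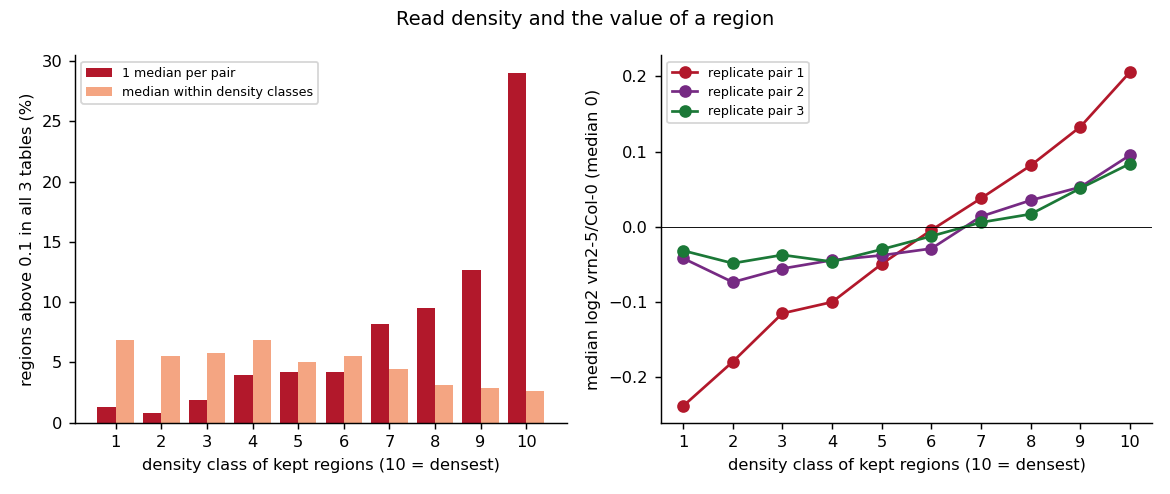
Left, the share of kept regions above 0.1 in all 3 tables in each density class. Dark red bars use 1 median per pair, and light bars use the median within density classes formed separately in each pair. Right, the median value of each class in the 3 pairs: all 3 lines are highest in class 10, and pair 1 spans the widest range, from -0.24 to 0.21.

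The regions were spread over the genome. Chromosomes 1 to 5 held 75, 45, 54, 42 and 71 of them, which is 7.33%, 7.39%, 7.49%, 7.47% and 8.15% of the kept regions there. The median distance to the nearest other region of the set was 129.4 kb, and 47 regions lay within 20 kb of another. They overlapped 1021 genes by body or, where the strand was known, by the 1 kb upstream, 9.05% of the 11278 genes in kept regions. Of these genes 770 were protein coding, the median region held 3 genes and the richest 19, and 3 regions held none.

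One region stood apart, chr3:11447200-11455599 (TAIR10). Its level was 285.3, 273.5 and 298.9 in vrn2-5 replicates 1 to 3 (reads scaled to 1000000 reads in regions), and 82.71, 161.2 and 198.2 in Col-0. The vrn2-5 levels lay close together and above all Col-0 levels, which differed among themselves by more than the vrn2-5 levels did. The values were 1.86, 0.82 and 0.63, and the authors' deposited ratios were 3.32, 1.70 and 1.48. The region covers AT3G29630, annotated as a member of the UDP-glycosyltransferase family of sugar-transferring enzymes, the gene AT3G29633, whose function is not annotated, the pseudogene AT3G29634 and 2 long non-coding RNA genes.

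Among the other 11 of the 12 regions with the highest lowest value, 3 also had no overlap between genotypes. The region chr5:3454400-3458999 holds MIR156d, a gene for miR156, the microRNA that keeps plants juvenile by lowering SPL factors, within the coordinates of AT5G10946, a gene of unannotated function. Its levels were 151.1, 123.7 and 121.9 in vrn2-5 and 119.5, 97.21 and 92.6 in Col-0, with even values of 0.41, 0.41 and 0.43. The lowest vrn2-5 level was just above the highest Col-0 level. The region chr3:16712000-16714999 with AT3G45555 had 133.9, 121 and 111.5 in vrn2-5 and 83.37, 79.34 and 87.34 in Col-0. Here every vrn2-5 level was well above the Col-0 levels, and the values were 0.75, 0.67 and 0.39. The region chr2:7969000-7971999 with the homeobox gene HB24 was sparse, at 44.2, 47.74 and 48.3 in vrn2-5 and 35.32, 40.46 and 37.5 in Col-0, and its values were 0.39, 0.30 and 0.40.

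The remaining 8 of the 12 had overlapping genotypes, with the higher vrn2-5 library in each table given by the rule. The region with the second highest lowest value was the short and sparse chr3:1966800-1968199, which holds non-coding RNA genes, with 42.62, 32.4 and 15.65 in vrn2-5 and 29.28, 24.16 and 11.66 in Col-0. Its values were 0.61, 0.49 and 0.46, it held 936 reads over the 6 libraries, and in pair 3 none of its rows in the authors' deposited tables was under a false discovery rate of 0.05. HAT9, a homeodomain-leucine zipper gene, lay in chr2:9700400-9709599 with 450.9, 166.6 and 164.4 in vrn2-5 and 373.2, 135.9 and 131.7 in Col-0. Replicate 1 of both genotypes was far above replicates 2 and 3 here, so the groups overlapped while the values were almost equal at 0.34, 0.36 and 0.36. CBL8, a calcium sensor gene, lay in chr1:23948000-23952399 with values of 0.56, 0.33 and 0.35. WRKY47, a WRKY transcription factor gene, lay in chr4:744800-748599 with values of 0.40, 0.36 and 0.30. The pseudogene AT1G30340 lay in chr1:10692400-10697399 with values of 0.34, 0.34 and 0.31, and RLP19, a receptor-like protein gene, in chr2:6534400-6541199 with 0.46, 0.32 and 0.30. LSH6, of the family named after LIGHT SENSITIVE HYPOCOTYLS, lay in chr1:2172800-2175799 with values of 0.41, 0.32 and 0.29.

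A gene of the Polycomb machinery itself lay near 1 of these 8. The region chr5:3688000-3694799 lies between ASP3, an aspartate aminotransferase gene, and EMF1, which encodes a plant Polycomb protein that acts with H3K27me3, and is upstream of both genes. EMF1 starts at 3695792 on the plus strand, so the region met only the far edge of its 1 kb upstream and none of its body. Its levels were 646.4, 294.9 and 315.1 in vrn2-5 and 482.1, 245.9 and 260.4 in Col-0, with values of 0.49, 0.32 and 0.31. Replicate 1 was again the highest in both genotypes. A second region of the set, chr5:3700600-3707999, overlapped 950 bp of the EMF1 body and had values of 0.38, 0.19 and 0.14. It did not pass within density classes. The kept region between these 2, chr5:3695800-3699199, overlapped 3400 bp of the EMF1 body and was outside the set, at 0.36, 0.09 and 0.16. EMF1 was the only gene of the 18 Polycomb writers and readers examined that was in the set, out of 6 in kept regions.

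**Figure D3:**
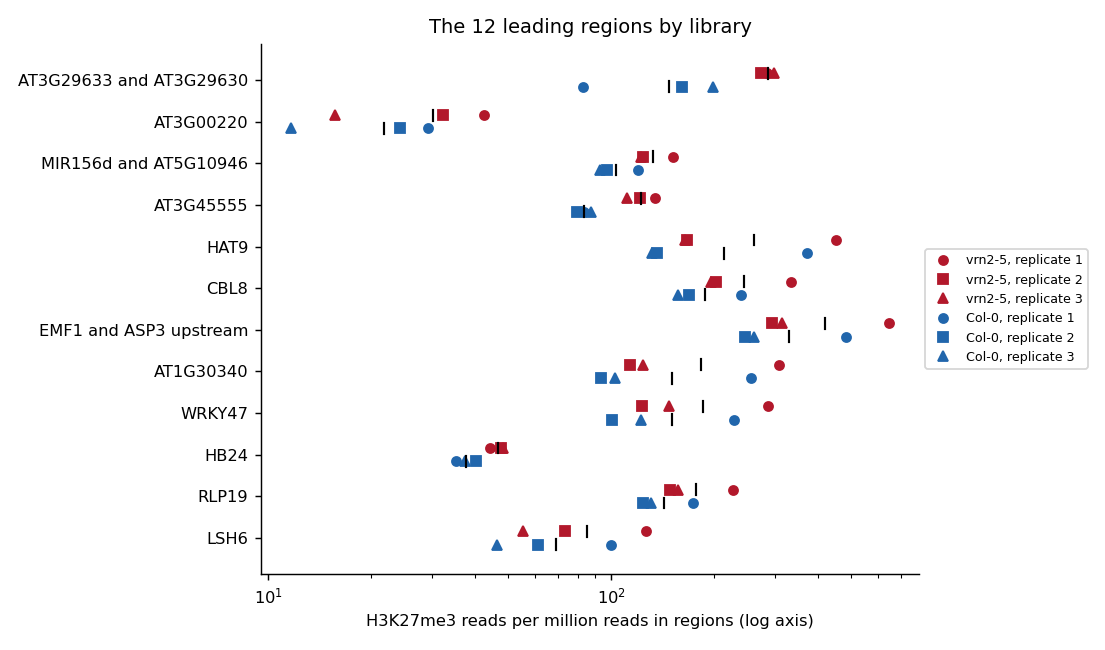
H3K27me3 level of the 12 regions with the highest lowest value, as reads scaled to 1000000 reads in regions on a log axis, for each vrn2-5 (red) and Col-0 (blue) replicate, with a black bar at the mean of each genotype. The genotypes do not overlap in the regions of AT3G29633, MIR156d, AT3G45555 and HB24, and in most of the others replicate 1 of both genotypes lies to the right of replicates 2 and 3.

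The 6 regions of the set with the most reads included known developmental loci. The most reads, 54848 over the 6 libraries, lay in chr2:19205000-19227199, which covers NST1, a regulator of secondary cell walls, and the gulonolactone oxidase genes GulLO2, GulLO5 and GulLO6, with values of 0.29, 0.12 and 0.16. Next came chr4:10730000-10755799 with 50236 reads, 7 genes from AT4G19720 to AT4G19780 and values of 0.23, 0.10 and 0.19, and chr4:11681400-11706599 with WRKY31 and the root hair gene RHS14, 47022 reads and values of 0.18, 0.15 and 0.11. The region chr1:9894800-9917799 with LEC2, an embryo identity gene, had 46692 reads, and chr1:23057600-23071999 with STM, which keeps the shoot meristem undifferentiated, had 44428. AS2, a leaf polarity gene, lay in chr1:24396400-24415799 with 42702 reads and values of 0.22, 0.16 and 0.15. Of these 6 regions, only that of LEC2 also passed within density classes.

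Of 31 developmental genes known as Polycomb targets, 30 lay in kept regions and 14 of these in the set (46.7%), beside 9.05% of all genes in kept regions. They were the floral organ genes AG, AP3, PI, SEP1, SEP2, SEP3, SHP1 and STK, the inflorescence and fruit genes AP1 and FUL, the meristem and boundary genes STM, KNAT1 and CUC2, and LEC2. Their median value was 0.25 in pair 1, 0.19 in pair 2 and 0.14 in pair 3, and 22 of the 30 had values above 0 in all 3 tables, against 29.34% of kept regions.

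AG specifies stamens and carpels, and its region chr4:10377800-10390599 had levels of 1116, 749.3 and 767.7 in vrn2-5 and 1001, 681.1 and 715.4 in Col-0. The region of STM had 1665, 1164 and 1115 in vrn2-5 and 1492, 1062 and 1048 in Col-0. For both genes the vrn2-5 library was the higher one in each table, as the rule requires. The genotypes overlapped, with replicate 1 high in both. The values of AG were 0.23, 0.20 and 0.14 and those of STM were 0.23, 0.19 and 0.13. LEC2 had the highest lowest value of the list, with 1739, 1300 and 1229 in vrn2-5 and 1462, 1173 and 1066 in Col-0, and values of 0.32, 0.21 and 0.24. KNAT1, a meristem homeobox gene, was near the threshold with 654.5, 724 and 736 in vrn2-5, 605.7, 690.3 and 699.6 in Col-0 and values of 0.18, 0.13 and 0.11.

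Other well known targets were outside the set. FLC, the flowering repressor that VRN2 is known to silence after cold, had values of 0.13, -0.02 and 0.06. FT, the mobile flowering signal, had 0.09, 0.10 and 0.11, and the stem cell gene WUS had 0.17, 0.16 and 0.08. MAF4 and MAF5, relatives of FLC, lay in lower regions with values of -0.24, -0.31 and -0.25 for MAF4 and -0.20, -0.29 and -0.28 for MAF5. The embryo gene LEC1, a partner of LEC2 in embryo identity, was also lower, at -0.20, -0.15 and -0.21.

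Density moved with this group too. Of the 14 genes, 10 lay in regions of density class 10 and 3 in class 9. Of the 30 targets in kept regions, 20 lay in classes 9 and 10, where 20.87% of kept regions were in the set. Relative to regions of their own density class, formed separately in each table, their median values were 0.06, 0.10 and 0.07. LEC2, AP3 and KNAT1 alone remained above 0.1 in all 3 tables. Whether density accounts for the excess at these genes was not tested.

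**Figure D4:**
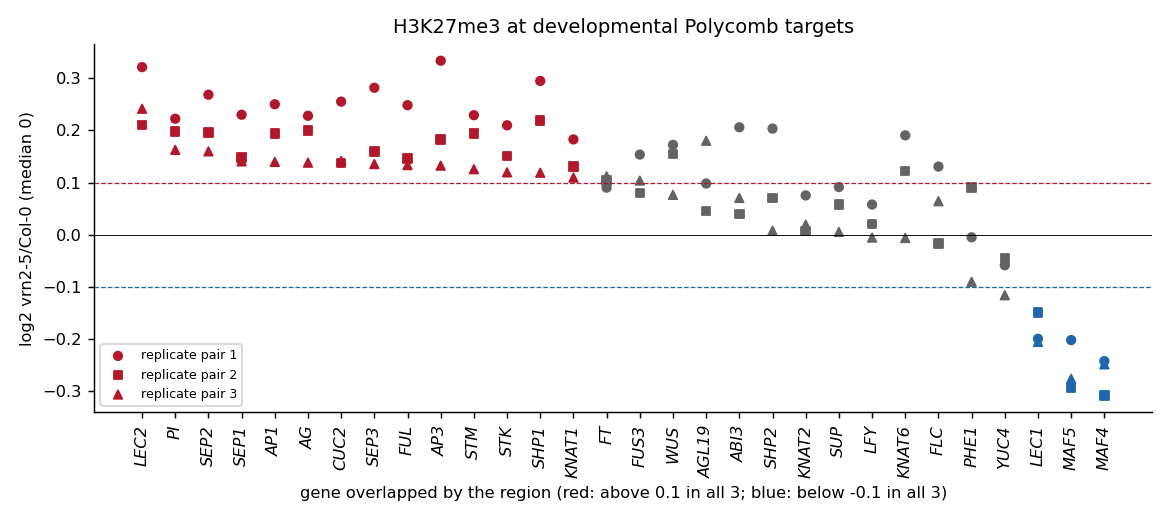
Values (log2 of vrn2-5 over Col-0, median set to 0) in the 3 replicate pairs of the 30 developmental Polycomb targets in kept regions, ordered by group and lowest value, with dashed lines at 0.1 and -0.1. The 14 genes in red are above 0.1 in all 3 tables, each with pair 1 highest, and MAF4, MAF5 and LEC1 in blue are below -0.1 in all 3.

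The other gene lists contributed few genes. Of the genes induced by shade and PIF factors, 2 of 15 in kept regions were in the set (13.3%): IAA2, an auxin-responsive repressor, at 0.31, 0.21 and 0.30, and HFR1, a bHLH factor that restrains shade growth, at 0.22, 0.12 and 0.16. ATHB4, YUC5 and YUC9 of the same list lay in lower regions. The hypoxia list gave 1 of 7, the group VII ethylene response factor gene HRE2, overlapped by 103 bp, at 0.20, 0.11 and 0.12, and the salicylate defence list gave 1 of 8, the immune regulator gene SARD1 at 0.26, 0.20 and 0.16. Each of these lists had 2 genes in lower regions, PCO2 and SUS4 of the hypoxia list and PR2 and CBP60g of the salicylate list. A second kept region, upstream of SARD1 at chr1:27750000-27755999, was outside the set with values of 0.09, 0.01 and -0.08. COBL9, a root hair gene, was the 1 of 8 root markers in kept regions that was in the set, at 0.12, 0.13 and 0.11. Of these genes of the set, SARD1 passed within density classes, and IAA2, HFR1, HRE2 and COBL9 did not. Within density classes HFR1 was at 0.01, 0.06 and 0.11, and HRE2 at -0.01, 0.01 and 0.03. IAA2 fell just short in pair 1, at 0.09999. No gene of the triterpene clusters (0 of 11), the seed maturation list (0 of 11), the flavonoid list (0 of 6), the abscisic acid and cold list (0 of 4), the senescence markers (0 of 3) or the photosynthesis list (0 of 1) was in the set. The flavonoid genes F3'H and DFR and the oil body gene OLE1 of the seed maturation list lay in lower regions. The 8 histone demethylase and trithorax genes examined were in no kept region.

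Families were taken by words in the gene descriptions, so a count can hold genes of a related family, and a gene can count more than once. PTL, APL and AT2G03500 are in both the homeobox and the MYB count, and NGA1, NGA3 and NGA4 are in the AP2/ERF count. By these word matches, transcription factor genes of several kinds were in the set more often than the 8.34% of protein-coding genes in kept regions. It held 20 of 85 homeobox genes (23.5%), 14 of 60 MADS box genes (23.3%), 10 of 37 WRKY genes (27%) and 14 of 56 bHLH genes (25%). No WRKY and no bHLH gene lay in a lower region. The shares of NAC genes (8 of 55, 14.5%), AP2/ERF genes (10 of 74, 13.5%) and MYB genes (11 of 130, 8.46%) were nearer to that of all protein-coding genes. Other families lay on both sides of that share, with 4 of 39 peroxidase genes (10.3%), 13 F-box genes (8.33%), 7 of 85 receptor kinase genes (8.24%), 4 of 131 cytochrome P450 genes (3.05%), 1 of 41 UDP-glycosyltransferase genes (2.44%) and 1 of 57 disease resistance genes (1.75%). Within density classes the share of all protein-coding genes was 4.16%. It was then 14.1% for homeobox genes, 10.8% for WRKY, 8.93% for bHLH, 6.15% for MYB, 3.64% for NAC and 1.67% for MADS box genes. Receptor kinase genes were at 9.41% and cytochrome P450 genes at 3.05%, so the order of the families depended on the centring.

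MicroRNA genes, looked at after their values were seen, gave 28 of 120 in kept regions (23.3%), with 6 in lower regions. The share of all genes in kept regions was 9.05%, and it was 8.34% for protein-coding genes, 12.6% for long non-coding RNA genes and 11.3% for pseudogenes. Within density classes 17 of the 120 passed (14.2%), beside 4.16% of protein-coding genes, 5.86% of long non-coding RNA genes and 11% of pseudogenes. Among the 28 were genes for miR156 and miR157, which hold back the change from juvenile to adult leaves, and for miR172, which promotes it. Of 15 such genes in kept regions 8 were in the set: MIR156d, MIR156e, MIR157a, MIR157b, MIR157c, MIR172a, MIR172b and MIR172d, and 6 of them passed within density classes. MIR157a and MIR157b share 1 region, chr1:24908400-24927599. Others of the 28 also share regions, so they are not separate loci. MIR397b, MIR5996, MIR841a and MIR3932b lie in 1 region, and MIR859, MIR774a and MIR774b in another. MIR858a shares a region with MIR858b, and MIR833a with MIR833b.

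MIR172a, in chr2:11941200-11946399, had levels of 222.7, 160.3 and 116.3 in vrn2-5 and 190.5, 142 and 95.8 in Col-0, with values of 0.30, 0.24 and 0.32. MIR172b, in chr5:1185200-1192199, had 493.8, 281.9 and 308.2 in vrn2-5 and 417, 239 and 268.9 in Col-0, with values of 0.31, 0.30 and 0.23. The genotypes overlapped in both, with vrn2-5 the higher library in each table, as the rule requires. MIR157c had values of 0.26, 0.43 and 0.15 in chr3:6242800-6246399, and MIR156e just passed at 0.13, 0.14 and 0.12. MIR156b went the other way, at -0.45, -0.28 and -0.26. No miR156 precursor was tested for expression. In rosettes the log2 difference in expression was 2.54 for MIR172b (unadjusted p 0.111 by edgeR) and -0.57 for MIR157c (unadjusted p 0.307 by edgeR), and neither was called. MIR172b was near the floor, with 0.31 and 0.12 CPM in pif4-2 and 1.13 and 1.37 CPM in vrn2-5 pif4-2.

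How many regions held VRN2-YFP depended on how many lists a peak had to be in. The authors' lists give the peaks of each of the 3 replicates separately, and 1402 merged intervals with a peak in at least 2 of the 3 lists were counted as reproducible. Such a peak overlapped 49 of the 287 regions (17.1%), 98 of the 464 lower regions (21.1%) and 793 of the 3786 kept regions (20.9%). A peak in at least 1 list overlapped 167 of the 287 (58.2%), against 54.7% of lower and 60.5% of kept regions. Per Mb of region there were 22.1 peaks in the set, 71.3 in the lower regions and 36.3 in all kept regions. The share was also taken by region length. It was 8% against 16.6% of kept regions up to 3000 bp, 11.5% against 18.2% from 3000 to 6000 bp, 11.6% against 21.8% from 6000 to 10000 bp, and 30.3% against 31.9% above 10000 bp.

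The lists did not give the same order. With list 3 alone 41.5% of the set had a peak, against 34.9% of kept regions and 21.1% of lower regions, whereas list 1 gave 33.8% against 35.7% of kept regions and list 2 gave 25.4% against 32.2%. The order of the set and the lower regions thus turned with list 3. The peak caller named for list 1 differs from that for list 2, and none is named for list 3, and the part of the calling in this difference was not tested.

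The 56 reproducible peaks in the set had a median highest fold over background of 2.21, as the authors' caller wrote it, against 2.25 for all 1402, and 18 of them were in all 3 lists. The strongest lay over AT2G25450, annotated as a 2-oxoglutarate and iron-dependent oxygenase, at chr2:10829844-10831066, with folds of 3.73, 3.02 and 6.50. Its region chr2:10826200-10831599 had levels of 373.2, 268.3 and 251.8 in vrn2-5 and 316.8, 260.6 and 216.7 in Col-0. HIS1-3, a stress-induced linker histone gene, had folds of 3.39, 3.58 and 2.59 in chr2:7845200-7862199, whose values were 0.27, 0.12 and 0.14. KNAT1 also held a peak in all 3 lists, with folds of 2.26, 2.64 and 2.32. In chr1:11523000-11528399 a peak lay over the pseudogene AT1G32049 and upstream of SCAMP5, with folds of 2.90, 3.10 and 2.23, and that region had comparatively high values of 0.54, 0.35 and 0.22. The other 5 of the 8 regions with the strongest peaks were those of AT3G28430 and AT5G56380, both met upstream, with a highest fold of 3.56 and 3.55, AT3G11150 with 3.39, AT4G01985 with 3.19, and AT5G40315 with AT5G40316 with 2.91.

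Expression was an independent measure of the same loci. Of the 1021 genes, 446 (43.7%) were in the seedling table and 546 in the rosette table. Their median level in Col-0 seedlings was 59.0 normalized reads, against 58.1 for the genes of all kept regions and 92.4 for all genes of that table. A total of 381 had a mean of at least 10 normalized reads and were tested with limma on log2(value + 5), a scale that understates the changes of low genes, and 423 were tested in rosettes with edgeR's quasi-likelihood test. The genes that passed these minimums are the expressed minority, and the count and median below describe those alone.

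In vrn2-5 against Col-0 seedlings, 1 gene of the set was higher at an adjusted p under 0.05 by limma (0.0119% of 16820 genes tested were higher) and none was lower (0.0119%). At an unadjusted p under 0.05 there were 7 higher and 4 lower genes, 2.89% of the set's genes against 2.85% of all genes. The edgeR and DESeq2 tests of the recovered reads also called 1 gene. The median log2 difference was -0.02 in the set and -0.002 over all genes, and 183 of the 381 were above 0. Every vrn2-5 library was above every Col-0 library for 9 genes (background 2.74%) and below for 9 (2.76%).

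With PRT6 mutated, vrn2-5 prt6-1 against prt6-1, no gene of the set was called by limma, edgeR or DESeq2, nor was any of the 16820 genes by limma (0%). There were 2 higher and 4 lower genes at an unadjusted p under 0.05, or 1.57% against 1.14% of all genes, and the median difference was -0.009. Groups without overlap were found for 19 higher and 16 lower genes (3.56% and 2.5% of all genes). A test of the difference between the 2 backgrounds (the interaction of genotypes in limma) called 0 of the 381 genes and 1 of all 16820, with 6 of the 381 (1.57%) and 225 of all genes (1.34%) at an unadjusted p under 0.05.

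In rosettes, vrn2-5 pif4-2 against pif4-2, edgeR called none of the 423 genes in either direction (0% of 18561 genes), and DESeq2 called 1. There were 3 higher and 10 lower genes at an unadjusted p under 0.05, which is 3.07% against 2.38% of all genes. The median difference was -0.02, beside -0.01 for all genes, and with 2 libraries a group 76 genes had no overlap on the higher side and 79 on the lower side, where the background was 17.5% and 15.9%. This comparison rested on single libraries. The median of the set's genes was 0.06 in vrn2-5 pif4-2 replicate 1 and -0.17 in replicate 2, and leaving out replicate 1 gave 268 calls among the set's genes (61% of those tested, 59.9% of all genes) and replicate 2 gave 52 (11.7%, 9.49% of all genes), with the lone sample assumed to vary like the other group. Leaving out pif4-2 replicate 1 or 2 gave 1 and 0 calls in the set (0.0104% of all genes each time). The senescence markers summed to 129.5 CPM in vrn2-5 pif4-2 replicate 1 and to 27.7 to 45.9 CPM in the other 3 libraries, and their part in these counts was not tested.

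**Figure D5:**
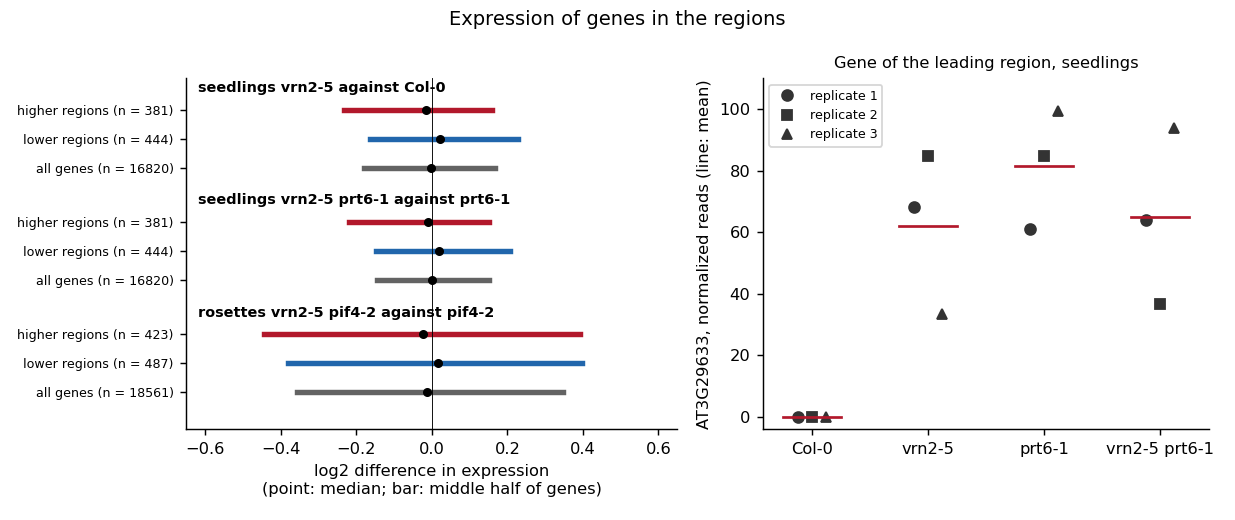
Left, median (point) and interquartile range (bar) of log2 differences in expression for tested genes in the 287 higher regions (red), in the 464 lower regions (blue) and for all genes tested (grey), in 3 comparisons; the medians of the set are -0.02, -0.01 and -0.02 and those of the lower regions 0.02, 0.02 and 0.02. Right, normalized reads of AT3G29633 in each seedling library with the mean of each genotype as a line: it is at 0 in all 3 Col-0 libraries and between 33.5 and 99.3 in the other 9.

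The called gene was AT3G29633 (chromosome 3, 11452509 to 11453528, minus strand), in the region with the highest values. Its normalized reads were 0, 0 and 0 for Col-0, and 68.2, 84.9 and 33.5 for vrn2-5. All vrn2-5 libraries were above all Col-0 libraries, which at their joint depth allow up to 0.747 normalized reads for a count of 0 (3 reads over the group), so the level was at least 83.2-fold higher. Col-0 replicate 3, with 20006773 reads, was among the deep libraries and had none. The limma difference was 3.66 on the log2(value + 5) scale (SE 0.389, adjusted p 0.00833, higher in 3 of 3 libraries), with adjusted p from 3.31e-08 to 0.463 over the alternatives. The call was lost with only the 6 Col-0 and vrn2-5 libraries in the fit (0.463), with a pseudocount of 20 (0.133), without Col-0 replicate 1 (0.0594) and without vrn2-5 replicate 2 (0.0553). Whether the mark was higher or lower where the transcript was higher depends on the reading of A as vrn2-5.

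In the other seedling genotypes the gene had reads in every library. It had 61.0, 84.8 and 99.3 normalized reads in prt6-1, where VRN2 itself had 118.2, 134.9 and 130.3, and 64.0, 36.7 and 93.9 in vrn2-5 prt6-1. These groups overlapped, and the difference between them was -0.37 (SE 0.389, limma adjusted p 1). Among the 4 seedling genotypes, Col-0 was the one at 0, and the mark in prt6-1 was not analysed here. In rosettes AT3G29633 had 0.268 and 0.0408 CPM in pif4-2 and 15.1 and 11.1 CPM in vrn2-5 pif4-2. The log2 difference of 6.39 (SE 0.807) had an unadjusted p of 0.00056 and an adjusted p of 0.945 by edgeR, and an adjusted p of 1.91e-09 by DESeq2. The edgeR adjusted p was 0.0187 with a replicate block, 0.838 with no filter on low counts, and between 1.47e-43 and 0.289 when 1 library was left out, 0.289 being without pif4-2 replicate 2 and 0.0386 without pif4-2 replicate 1. The neighbour AT3G29630 averaged 8.18 normalized reads in Col-0 and 1.15 in vrn2-5, below the minimum for a test.

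The genes of the other leading regions gave no call. EMF1 differed by -0.22 between vrn2-5 and Col-0 seedlings, WRKY47 by -0.47, LSH6 by 0.31, HAT9 by -0.05, HB24 by -0.03 and RLP19 by -0.06 on the log2(value + 5) scale (limma adjusted p 1 for each). LSH6 had 125.6 ± 38.3 normalized reads in Col-0 and 152.1 ± 22.6 in vrn2-5 (SD, n = 3), and WRKY47 had 120.0 ± 28.5 and 85.9 ± 24.0. Neither difference passed the test. CBL8 and MIR156d did not reach the minimum for a test.

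After AT3G29633, the genes with the smallest p in vrn2-5 against Col-0 included some with 1 discordant Col-0 library. CRK42, a receptor-like kinase gene whose body overlaps chr5:16152000-16157799, had 0, 0 and 14.4 normalized reads in Col-0 and 97.5, 94.9 and 40.2 in vrn2-5. All vrn2-5 levels were above the Col-0 levels, and the difference of 3.299 (SE 0.607) had a limma adjusted p of 0.415. HRB1, a light-signalling gene with a region of the set upstream, had 0, 0 and 51.7 in Col-0 against 76.2, 64.96 and 83.8 in vrn2-5, and RWA1, a wall acetylation gene also met upstream, had 0, 0 and 136.2 against 102.5, 129.9 and 164.2. Col-0 replicate 3 overlapped the vrn2-5 range for RWA1 and stood between the groups for HRB1, and without it CRK42, HRB1 and RWA1 were called together with AT3G29633. The prt6-1 libraries, where VRN2 is not mutated, had 118.2, 80.1 and 34.1 for CRK42, 49.6, 84.4 and 87.7 for HRB1 and 144.9, 116.4 and 106 for RWA1, near or within the vrn2-5 range and not at the 0 of Col-0 replicates 1 and 2. AT5G24240, annotated as a phosphatidylinositol 4-kinase gamma-like gene, had 30.0, 70.8 and 51.7 in Col-0 against 4.8, 0 and 6.7 in vrn2-5, with no overlap, a difference of -2.68 (SE 0.495) and a limma adjusted p of 0.415. It had 0, 2.9 and 0 in prt6-1, which is the vrn2-5 range or below and not that of Col-0. NIC2, a nicotinamidase gene, had Col-0 levels of 11.2, 14.2 and 17.9 against vrn2-5 levels of 22.1, 30.0 and 33.5, with no overlap, a difference of 0.79 (SE 0.30) and a limma adjusted p of 1.

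The developmental genes of the set were mostly below the minimum for a test in seedlings. Of the 14, 3 were tested in seedlings and 9 in rosettes, and none was called by limma or edgeR. STM had 76.3, 61.4 and 56.6 normalized reads in prt6-1 and 48.5, 18.3 and 43.8 in vrn2-5 prt6-1, with no overlap, a difference of -0.82 (SE 0.301) and a limma adjusted p of 1. EMF1 had 186.9, 164.1 and 147.99 in prt6-1 and 130.1, 110.02 and 133.9 in vrn2-5 prt6-1, a difference of -0.40 (SE 0.155, limma adjusted p 1) with no overlap. The other 4 of the 6 smallest p of that comparison were those of IAA2, with a difference of 0.66, AT2G25450 with -0.44, AT1G63220 with 0.34 and LDA, a starch debranching enzyme gene, with -1.32 (limma adjusted p 1 for each). IAA2 had 1018, 1300 and 1779 in prt6-1 and 2241, 2214 and 1873 in vrn2-5 prt6-1, with no overlap. None of the 6 passed the correction for all genes. PI was irregular, with Col-0 at 11.2, 7.1 and 69.9, vrn2-5 at 19.4, 0 and 0, prt6-1 at 103, 211.7 and 84, and vrn2-5 prt6-1 at 135.2, 82.5 and 70.1.

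In rosettes KNAT1 had 1.34 and 1.43 CPM in pif4-2 and was at 0 in both vrn2-5 pif4-2 libraries, with an edgeR adjusted p of 0.945. In seedlings it had 101.2, 145.2 and 97.3 normalized reads in Col-0 and 127.3, 144.9 and 107.3 in vrn2-5, where the groups overlapped. AP3 likewise had 0.72 and 1.43 CPM in pif4-2 rosettes and 0 in both vrn2-5 pif4-2 libraries. AKR4C8, an aldo-keto reductase gene met upstream, had 8.45 and 14.6 CPM in pif4-2 and 26.7 and 44.8 in vrn2-5 pif4-2, a difference of 1.68 (SE 0.489). EIN4, an ethylene receptor gene, differed by -0.92 in rosettes, HDG1, an epidermal homeobox gene, by -0.93 and SPPL3, a signal peptide peptidase-like gene, by -0.96. The regions of EIN4 and SPPL3 overlapped only the downstream end of each gene. None of these 4 was past the edgeR threshold after adjustment (adjusted p 0.945 for each).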

How the data were processed

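The regions and gene lists were chosen with earlier results of these data known. The submitters' processing notes name TAIR10, BWA for immunoprecipitations, Bowtie for RNA, SICER for H3K27me3, MACS2 for the first and MACS3 for the second VRN2-YFP replicate, and DESeq2 for RNA. The sources used here do not give versions, settings, the strand of counting or the caller of replicate 3. The labels' protocols name the AB290 antibody at all immunoprecipitations, so the antibody against H3K27me3 is not given either.

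Each H3K27me3 table deposited by the authors holds, per the file headers, read counts of 2 libraries per region, normalized reads (RPM), their fold ratio and a false discovery rate (a p-value corrected for many tests) in each direction. Regions were merged at 1 bp of overlap. Values and levels were computed from the deposited counts as described with the regions. Inputs were not analysed here beyond the authors' own calls. The deposited peak lists hold the fold over background and the -log10 of the q-value of each peak.

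In the deposited seedling table each gene has a signal that the authors normalized by a factor per library. Its low values rise in equal steps, and 100% of all values were whole multiples of the step within 0.01. It was tested with limma 3.58.1 (R 4.3.3, trend) on log2(value + 5) over all 12 libraries with genotype as the term, on the 16820 genes of 18480 whose mean reached 10. The deposited rosette counts were tested with edgeR 4.0.16 (quasi-likelihood, TMM, filterByExpr) for 18561 of 21884 genes. Benjamini-Hochberg adjustment ran over all genes tested, and rosette standard errors were derived from the F statistic. DESeq2 1.42.0 and edgeR on recovered reads were alternatives. The authors' deposited log2 fold changes and p-values of rosettes were not used. Gene positions, values of the kind other than a measurement, came from the deposited rosette table and, for genes it lacks, from RefSeq TAIR10.1. Genes with a start and end in both were at the same place in 99.98% of 21713 cases. The upstream 1 kb was used where the table gave the strand.

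Named were the 12 regions with the highest lowest value, 6 with the most reads, those nearest the threshold, up to 8 with the strongest VRN2-YFP peaks, list genes, and the called and 6 smallest-p genes of each comparison. The microRNA genes, the other peaks and the genes with discordant libraries that go beyond this were chosen after their values were seen. Counting steps and tests were tested on simulated data. Tables were made with Python 3.11.15, numpy 2.4.6 and pandas 2.3.3, and figures with matplotlib 3.10.9. No sequence, motif or base composition was used here.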

Additional observations from a re-analysis of the deposited data

How the results depend on the processing

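The number of regions depended on where the median was set and on the threshold. Against 287, it was 636 at a threshold of 0.05 and 35 at 0.2, 87 without subtracting the median, 57 with the authors' normalized reads and no median, and 185 with the median taken within density classes (the last 2 chosen after seeing the data). It was 343 to 557 when 1 pair was left out, which by construction asks less of a region. A gap of 500 bp in the merging and a minimum of 100 reads gave 284 and 283. TMM scaling and the authors' normalized reads, both centred, gave 287, which says nothing of stability, since the median removes a factor per library. Of the 14 developmental genes, 1 remained at 0.2 and 3 within density classes.

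Against 49 regions with a VRN2-YFP peak, 167 had one in at least 1 list, 17 in all 3 lists, 27 with a -log10 q of at least 5, and 22 of the regions chosen within density classes had one. Leaving out 1 list gave 19 to 38.

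For vrn2-5 against Col-0 seedlings the calls were 0 instead of 1 with a pseudocount of 20 and with only the 6 libraries compared, 0 to 4 when 1 library was left out, and 4 without number 3 of all genotypes (chosen after seeing the data). AT3G29633 had a limma adjusted p of 0.133, 0.463, 0.0594 and 0.0553 with the pseudocount of 20, the 6 libraries, without Col-0 replicate 1 and without vrn2-5 replicate 2. For vrn2-5 prt6-1 against prt6-1 every setting gave 0 calls. In rosettes the calls were 1 with DESeq2 and 0 to 268 when 1 library was left out, and the median difference ran from -0.201 to 0.0113. Samples of the same number had correlations over genes, as deviations from the group mean, of 0.02, 0.19 and 0.33 for vrn2-5 with Col-0. They were -0.22, -0.22 and 0.50 for the prt6-1 pair, and 0.04 in rosettes. In both seedling comparisons number 3 with number 3 was the highest of all pairings, and number 3 with numbers 1 and 2 was negative. In the prt6-1 pair, number 1 with number 2 gave 0.44 and number 2 with number 1 gave 0.39. Number 3 thus deviated alike in the groups compared, while numbers 1 and 2 did not pair throughout. With a replicate block the calls were 1, 0 and 1, the last being AT3G29633 (adjusted p 0.0187). For the called and 6 smallest-p genes of each comparison, none of 210 values under other settings changed sign. These genes were picked by p in the same data, which favours a stable sign. The other named genes were not in this count. The causes of these changes were not tested.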
